A study of Mus musculus with 130 samples.

Results

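Interferon-stimulated genes were followed here in mouse liver under dietary iron. The set was a list of 33 named genes, matched by symbol to Ensembl identifiers, and all 33 were found among the 35274 genes of the diet tables and the 35711 genes of the strain-panel tables. The members were given by name. All mice were labelled male, and liver RNA was sequenced from 130 of them after capture of mRNA with a stranded kit. In the diet study, C57BL/6J mice were fed chow, a purified diet with 50 ppm iron (called sufficient in the labels), or a diet with 500 ppm iron (called elevated). Others ate carbonyl iron at 2% of the diet (20000 ppm), or that amount in a diet whose label names cellulose as fiber source. Each diet had 3 mice. In the strain panel, 115 mice of 114 inbred strains ate chow for 4 weeks and were then kept on the high-iron diet for 6 weeks. Each strain was represented by 1 mouse, and 129X1/SvJ by 2. The panel held 56 BXD strains (recombinant inbred lines derived from C57BL/6J and DBA/2J), 20 AXB and BXA strains (from A/J and C57BL/6J), 4 BXH strains, 3 CXB strains and 31 other inbred strains. The BXD strains include BXD24/TyJ-Cep290<rd16>/J, whose label names the rd16 allele of Cep290. The labels give no age, batch or date. Every panel mouse ate the 2% diet, so the panel shows differences between strains on iron and not a response to it. A strain with 1 mouse also has no replicate, so a difference between strains cannot be told apart from a difference between mice.

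Interferons are cytokines released by cells that detect viral or misplaced nucleic acid. Type I interferons act through the receptor chains Ifnar1 and Ifnar2 and the kinases Jak1 and Tyk2. Their signal brings Stat2 and Irf9 together in the factor ISGF3, which binds the interferon-stimulated response element in the promoters of target genes. The targets include sensors of viral RNA, proteins that block viral replication, and regulators that amplify or stop the response, such as Irf7 and Usp18. In liver both hepatocytes and the resident macrophages, called Kupffer cells, can respond to interferon.

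The response element has a recognisable core, and promoters that hold it are printed here to show where it lies in these genes. RefSeq promoter windows of GRCm38.p6, running from 250 bases before to 50 bases after the annotated start, were matched for 23 of the 33 members. No window was matched for Oas2, Usp18, Mx1, Mx2, Dhx58, Ifi27, Rtp4, Zbp1, Parp14 and Ly6e. The motif searched on both strands was GAAA, any 2 bases, then GAAA again, with overlapping matches allowed. It was present in 13 of the 23 members (56.5%), against 3.99% of the 27025 genes in the table. The gamma-activated core TTCNNNGAA, which reads the same on both strands, was present in 4 of the 23 (17.4%), against 9.55% of all genes. A match is a description of the letters and not evidence that a factor binds. In the windows below, capitals mark the response-element cores, and each sequence is written 5′ to 3′ on the strand of its gene.
Isg15, chr4:156200845-156200926, minus strand: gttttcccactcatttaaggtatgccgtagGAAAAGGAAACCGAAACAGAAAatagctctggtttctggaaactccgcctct
Ifit1, chr19:34640755-34640843, plus strand: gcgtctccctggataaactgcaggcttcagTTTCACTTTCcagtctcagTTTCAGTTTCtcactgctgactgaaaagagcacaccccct
Ifit3, chr19:34583343-34583446, plus strand: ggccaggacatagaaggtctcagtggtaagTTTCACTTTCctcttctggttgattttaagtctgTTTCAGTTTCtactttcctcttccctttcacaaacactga
Oas1a, chr5:120907500-120907575, minus strand: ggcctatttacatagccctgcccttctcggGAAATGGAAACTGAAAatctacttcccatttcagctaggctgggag
Oas1g, chr5:120887586-120887661, minus strand: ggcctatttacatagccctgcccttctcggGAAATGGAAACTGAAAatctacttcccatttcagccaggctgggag
Oas3, chr5:120777695-120777764, minus strand: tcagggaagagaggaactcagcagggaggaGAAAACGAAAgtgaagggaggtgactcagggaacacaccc
Rsad2, chr12:26456533-26456602, minus strand: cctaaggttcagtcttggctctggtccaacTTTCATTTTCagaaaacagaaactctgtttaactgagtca
Bst2, chr8:71537557-71537632, minus strand: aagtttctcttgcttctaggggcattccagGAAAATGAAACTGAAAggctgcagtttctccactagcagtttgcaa
Isg15 held 3 overlapping cores, the first of them starting 78 bases before the start site. The window of Ifit3b was the same as that of Ifit3 over the whole stretch shown, and the windows of Oas1a and Oas1g differed at 1 of 76 bases. Single cores were also found in Stat2, Ddx58, Ifih1 and Trim30a. The windows of Irf7, Irf9, Ifit2, Oasl1, Oasl2, Ifi35, Ifi44, Xaf1, Cmpk2 and Herc6 held no match to these letters.

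The diet libraries held 10420708 to 20357169 counts each, and the panel libraries 9407880 to 20572879. Levels are given in CPM, the usual depth-scaled count, with libraries scaled by TMM factors, and comparisons of diets or strain families use the quasi-likelihood test of edgeR with Benjamini-Hochberg adjustment over all genes tested, where a gene is called at an adjusted p under 0.05. Hepatocyte markers were abundant in every diet library, with summed levels of 82479 to 105120 CPM over 8 genes. One panel library labelled male, that of BXD65/RwwJ, held 3.94 CPM over 4 Y-linked genes, against 118 to 328 CPM in the 114 other libraries. Without it, the number of members called between strain families and of those related to Irf7 did not change. Nothing in the labels says that mice of 1 diet came from separate cages, so p-values measure the spread between these mice.

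The 2% iron diet was accompanied by higher levels of most interferon-stimulated genes in C57BL/6J liver. Relative to 50 ppm, 29 of the 33 members were called higher and none lower, while 8.52% of the 13560 genes tested were called higher. The median log2 fold change was 1.62 over the members and 0.01 over all genes. For 32 members, the 3 mice on 2% iron all lay above the 3 mice on 50 ppm. The share of all genes with such a separation was not computed, so this count has no background. With 1 mouse of either diet left out, between 25 and 27 members were called higher.

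**Figure D1:**
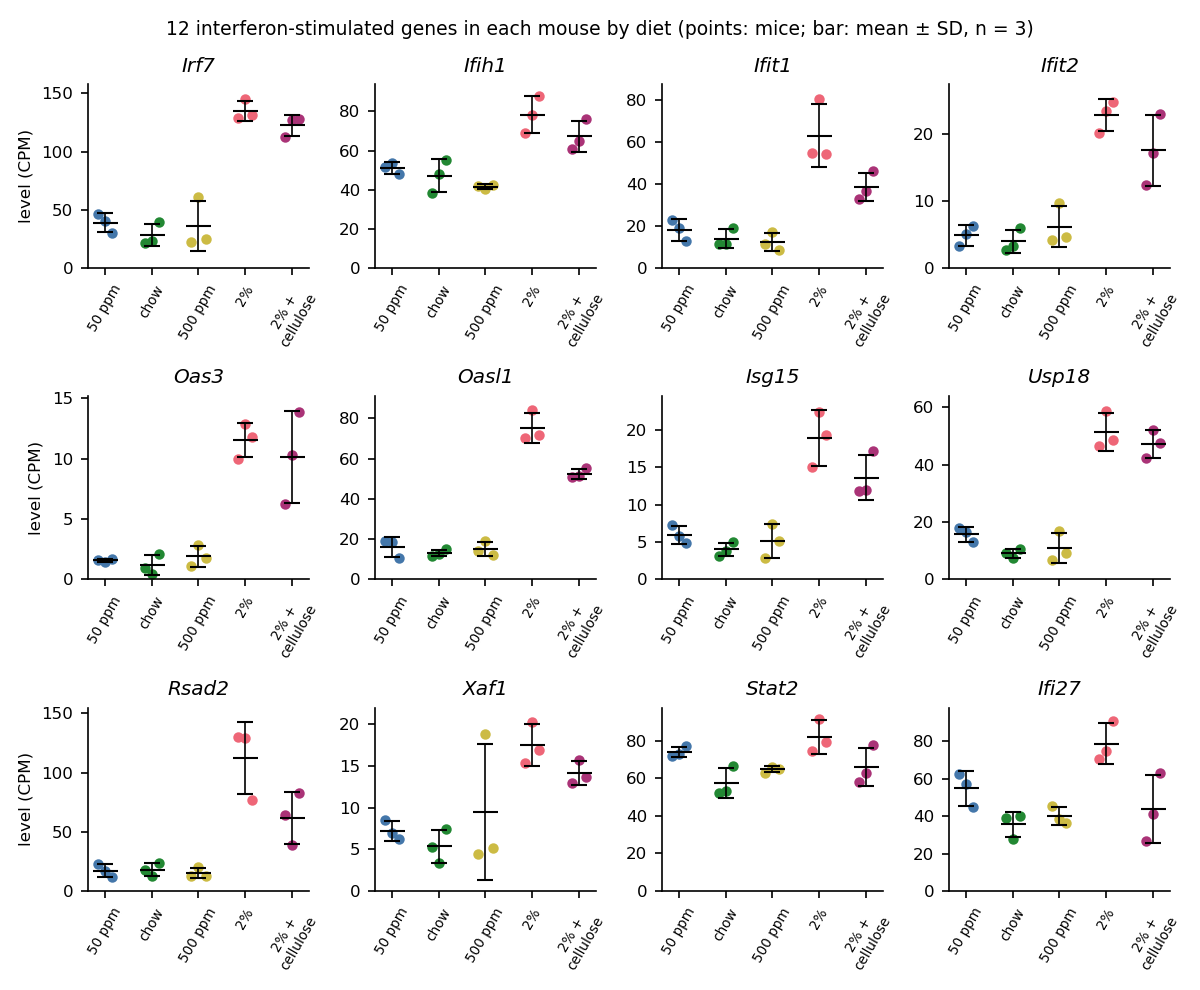
Levels in CPM (vertical axes, each starting at 0) of 12 interferon-stimulated genes in each of 15 C57BL/6J mice, by diet (horizontal axes). Points are mice and bars are mean ± SD of 3 mice. Irf7 lies between 129 and 145 CPM in the mice on 2% iron and at or below 61 CPM in every mouse on 50 ppm, chow or 500 ppm, whereas the diets overlap for Stat2.

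Among the sensors and signalling genes, 5 of 7 were called higher. Irf7, the transcription factor that amplifies interferon production, stood at 46, 40.5 and 29.8 CPM on 50 ppm and at 129, 145 and 131 CPM on 2% iron. The groups did not overlap, and the log2 fold change was 1.80 ± 0.32 (SE, adjusted p = 0.00305). Zbp1, a sensor of Z-form nucleic acid, rose by a log2 fold change of 1.56 (adjusted p = 0.0159). Its call was lost without replicate 1 or replicate 2 of the 50 ppm mice (adjusted p = 0.0654 and 0.0514). The 3 cytosolic RNA helicases rose by less than Irf7. Dhx58 (LGP2) changed by 0.87, Ddx58 (RIG-I) by 0.67 and Ifih1 (MDA5) by 0.62 on the log2 scale. Stat2 and Irf9, the components of ISGF3 on the list, did not pass the test. Stat2 was 72.0, 72.9 and 77.1 CPM on 50 ppm and 74.7, 91.7 and 79.3 CPM on 2% iron, ranges that overlap (log2 fold change 0.15 ± 0.12 SE, adjusted p = 0.441). Irf9 was 45.9, 42.5 and 38.2 CPM on 50 ppm and 52.9, 59.1 and 47.5 CPM on 2% iron, which did not overlap (log2 fold change 0.33 ± 0.12 SE, adjusted p = 0.0703).

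The oligoadenylate synthetase family, whose active members make the second messenger that switches on the antiviral nuclease RNase L, included Oas3, the member with the highest fold change. All 6 were called higher, with log2 fold changes between 1.74 and 2.86. Oas3 was 1.65, 1.45 and 1.66 CPM on 50 ppm and 10.02, 12.9 and 11.8 CPM on 2% iron, a log2 fold change of 2.86 ± 0.41 (SE, adjusted p = 8.61e-04). Oasl1, a synthetase-like protein that limits translation of Irf7, had the lowest adjusted p of the members. It stood at 19.1, 18.6 and 10.4 CPM on 50 ppm and at 70.4, 83.9 and 71.8 CPM on 2% iron (log2 fold change 2.24 ± 0.20 SE, adjusted p = 8.17e-05). Oas1g rose by 2.63, Oasl2 by 2.34, Oas1a by 2.20 and Oas2 by 1.74 on the log2 scale. Oas1a and Oas1g are close paralogs, as are Ifit3 and Ifit3b, so the division of reads within each pair is uncertain.

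All 4 Ifit genes, which encode proteins that bind foreign RNA and block its translation, were called higher. Ifit1 was 23.05, 19.03 and 12.7 CPM on 50 ppm and 54.5, 80.4 and 54.04 CPM on 2% iron. Ifit2 rose from between 3.20 and 6.29 CPM to between 20.1 and 24.8 CPM, a log2 fold change of 2.22 ± 0.36 (SE, adjusted p = 0.00167). Ifit3 and Ifit3b changed by 1.62 and 1.71 on the log2 scale. The 3 genes of the ubiquitin-like modifier pathway were also called. Isg15, the modifier itself, was 7.26, 5.79 and 4.88 CPM on 50 ppm and 14.98, 22.4 and 19.3 CPM on 2% iron. Usp18, which removes Isg15 from proteins and blocks the interferon receptor, changed by 1.71 on the log2 scale (adjusted p = 8.7e-04), and the ligase Herc6 by 0.73 (adjusted p = 0.00846).

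Both Mx genes, of a family of dynamin-like GTPases, passed the test by a narrow margin. Mx1 was 3.20, 2.51 and 1.24 CPM on 50 ppm and 8.69, 8.35 and 4.35 CPM on 2% iron (log2 fold change 1.63 ± 0.47 SE, adjusted p = 0.0307). Mx2, annotated as a polymorphic pseudogene in this genome, changed by 1.15 ± 0.35 (SE, adjusted p = 0.0415). The call of Mx1 was lost in 5 of the 6 fits with 1 mouse left out, all but that without replicate 3 of the 2% mice, with adjusted p between 0.0517 and 0.108. That of Mx2 was lost in all 6, with adjusted p between 0.0629 and 0.134, and in 7 alternative settings in total.

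Of the 11 other effectors, 9 were called higher. Rsad2 (viperin), which makes a chain-terminating nucleotide, was 22.8, 17.2 and 11.8 CPM on 50 ppm and 130, 129 and 77.1 CPM on 2% iron, so that all 3 iron-fed mice lay above all 3 controls (log2 fold change 2.71 ± 0.34 SE, adjusted p = 4.89e-04). Cmpk2, the nucleotide kinase encoded beside Rsad2 on chromosome 12, changed by 1.36. Ifi44 and Trim30a changed by 1.96 and 1.65, Rtp4 by 1.18 and Ly6e by 1.16 on the log2 scale. Bst2 (tetherin), which holds budding virus at the cell surface, changed by 0.79, Parp14 by 0.69 and Ifi35 by 0.48. The calls of Bst2 and Ifi35 were lost without replicate 2 of the 2% mice (adjusted p = 0.0607 and 0.0628) or replicate 3 of the 50 ppm mice (adjusted p = 0.0668 and 0.0628), and that of Bst2 also without replicate 3 of the 2% mice (adjusted p = 0.0638). Trim30a lost its call in 2 alternatives, among them limma on log2(TPM + 1), where its adjusted p was 0.0787.

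Xaf1 and Ifi27 did not pass. Xaf1, a pro-apoptotic zinc finger protein, was 8.52, 6.95 and 6.21 CPM on 50 ppm and 15.3, 20.2 and 16.96 CPM on 2% iron (log2 fold change 1.28 ± 0.43 SE, adjusted p = 0.0613). Xaf1 was called in 5 alternatives, with an adjusted p of 0.0449 without a filter on low counts, 0.0223 in DESeq2, 0.029 and 0.0367 in limma on log2(TPM + 1) and log2(TPM + 0.1), and 0.0024 with these 2 diets fitted alone. The last of these also called Ifi27, at 0.045. Ifi27, a protein of mitochondria, was 62.7, 57.2 and 44.7 CPM on 50 ppm and 70.4, 75.0 and 91.1 CPM on 2% iron (log2 fold change 0.52 ± 0.24 SE, adjusted p = 0.161). On the length-scaled TPM values deposited by the authors, the most abundant members on 2% iron were Ly6e at 594 ± 83.7 TPM, Bst2 at 182 ± 30.1 TPM and Ifi27 at 143 ± 11.6 TPM (SD, n = 3). Oas3, with the highest fold change, was the least abundant at 2.68 ± 0.41 TPM (SD, n = 3).

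**Figure D2:**
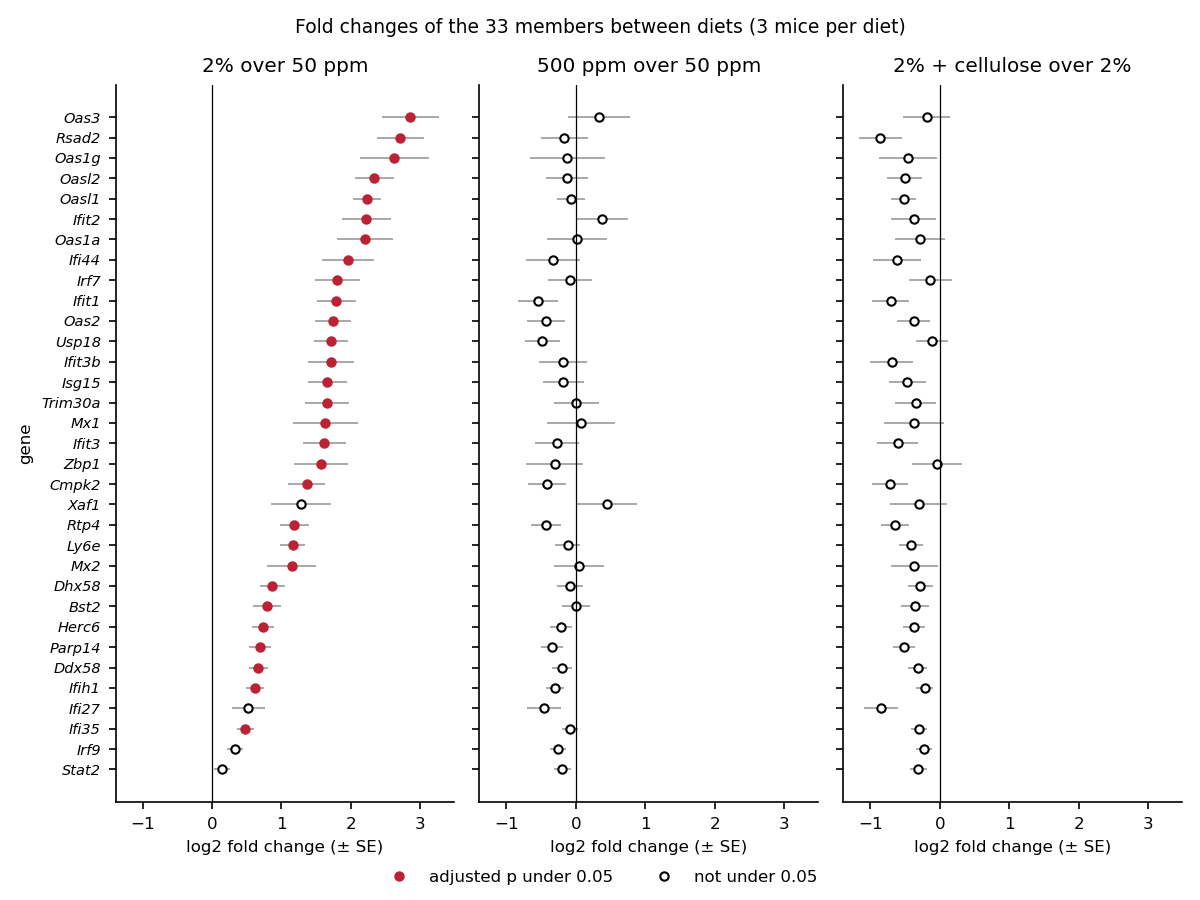
Log2 fold changes (horizontal axes, ± SE) of the 33 members (vertical axis, ordered by the first panel) for 2% over 50 ppm, 500 ppm over 50 ppm, and 2% with cellulose over 2%, from 3 mice per diet. Filled points have an adjusted p under 0.05. The first panel has 29 filled points and the other panels have none, and in the third every point lies below 0.

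Genes around the response moved less uniformly. None of 10 interferon ligand genes passed the filter on low counts. Ifng had at most 1 count in any diet library and the other 9, Ifnb1 among them, had 0. Of 12 receptor and signalling genes tested, 1 rose and 1 fell, where 2127 of all 13560 genes tested were called in either direction. Ifngr1, a chain of the interferon gamma receptor, rose by 0.83 (adjusted p = 0.00712), and Ifnar2 fell by 0.39 on the log2 scale (adjusted p = 0.00392). Of 20 genes of nucleic acid sensing, 5 were called higher, where 8.52% of all genes were. The endosomal RNA sensors Tlr7 and Tlr8 rose by 1.75 and 1.27, the exonuclease Trex1 by 1.18 and the nucleotide hydrolase Samhd1 by 0.79. Of 30 further type I targets, 16 were called higher, led by Gm12250 at 1.86, Slfn8 at 1.77, Phf11d at 1.74 and Ifi27l2a at 1.42. Of 20 genes better known for induction by interferon gamma, 5 were called higher, among them Gbp3 at 1.43, Gbp9 at 1.11, Irf8 at 1.02 and Gbp7 at 0.92. The chemokine genes Cxcl9 and Cxcl10, picked after their values were seen, had log2 fold changes of -0.05 and 0.71 (adjusted p = 0.953 and 0.236). The median log2 fold changes of these 4 lists, from receptors to interferon gamma targets, were 0.15, 0.38, 0.61 and 0.59.

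Markers of Kupffer cells moved with the 2% diet as well, whereas other cell types had few or no markers called. All 11 Kupffer cell markers were called higher, with a summed level of 178 to 289 CPM on 50 ppm and 693.3 to 753.9 CPM on 2% iron. The 7 neutrophil markers summed to 0.19 to 0.83 CPM on 50 ppm and 3.64 to 12.7 CPM on 2% iron. None of 5 lymphocyte and none of 5 plasmacytoid dendritic cell markers tested was called, with 0 and 1 of them at an unadjusted p under 0.05 in edgeR. Of the 7 neutrophil markers, 4 were tested and none was called, with 2 at an unadjusted p under 0.05. Endothelial markers had 2 of 6 called higher and none lower, and hepatocyte markers had 1 of 8 called lower and none higher. Over all genes, 8.52% were called higher. The part of these cells in the rise of the interferon-stimulated genes was not tested. In bulk tissue, more cells of a type and more RNA per cell cannot be told apart.

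Iron at 500 ppm was not accompanied by a detectable change. None of the 33 members was called against 50 ppm in edgeR, and none of 13560 genes was (0%). With 2 members at an unadjusted p under 0.05 (Irf9 and Ifih1, both lower), DESeq2 called none either. The median log2 fold change of the members was -0.18. The second 500 ppm mouse had the highest value of its group for 28 of 33 members. Its Irf7 was 61 CPM against 22 and 25.2 CPM in the other two, and its Xaf1 was 18.9 CPM against 4.39 and 5.17. Without this mouse, still no member was called. Relative to 500 ppm, 30 members were called higher on 2% iron, where 6.59% of all genes were. This comparison and that with 50 ppm share the 2% mice.

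No member was called between chow and the 50 ppm diet, with 5 at an unadjusted p under 0.05 in edgeR and 0 called by DESeq2, and 0.391% of all genes were called in either direction. All 5 were lower on chow, Ifi44 at 2.82, 3.07 and 4.72 CPM against 7.46, 11.9 and 5.71 CPM, and the others were Oas2, Usp18, Stat2 and Ifi27. Those 5 and Oas1a did not overlap between the diets, but the share of all genes without overlap was not computed. A positive log2 fold change was seen for 3 of 33 members, and the median was -0.25, where that over all genes was 0.004. The third chow mouse had the highest value of its group for 29 of 33 members, and without it still no member was called against 50 ppm and all 33 were called on 2% iron. Relative to chow, all 33 members were called higher on 2% iron, where 11.9% of all genes were. In that contrast Stat2 (log2 fold change 0.51, adjusted p = 0.00714) and Irf9 (0.46, adjusted p = 0.0121) were among the calls. Levels of Stat2 were 52.2, 53.2 and 66.5 CPM on chow, below every mouse on 50 ppm.

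The label of the other 2% diet names no fiber source, so whether it held cellulose is not known. With cellulose as the named fiber, all 33 members had a lower mean than on that other diet. The median log2 fold change was -0.37, where the median over all genes was 0.00. None of these differences was called in edgeR, with 13 at an unadjusted p under 0.05, and 0.0811% of all genes were called in either direction. DESeq2 called 1 member lower. Ifi27 had the lowest unadjusted p, at 26.8, 41.4 and 63.2 CPM with cellulose, all below the range on the other 2% diet (log2 fold change -0.85 ± 0.24 SE, adjusted p = 0.176). Rsad2 was 64.4, 38.9 and 82.4 CPM with cellulose, which overlaps the range on the other 2% diet (log2 fold change -0.86 ± 0.31 SE, adjusted p = 0.27). The third cellulose mouse had the highest value of its group for 30 of 33 members, and without it 2 members were called lower. Relative to 50 ppm, 20 members were called higher on 2% iron with cellulose, where 15.4% of all genes were, and between 15 and 23 with 1 mouse left out, with 15 higher and 1 lower without the third cellulose mouse. All 6 synthetase genes and all 4 Ifit genes were among them. Irf7 was 112.2, 127 and 128 CPM with cellulose, close to its level on the other 2% diet, whereas Stat2 and Ifi27 had lower means than on 50 ppm. The Kupffer cell markers summed to 725 to 1044 CPM with cellulose and the neutrophil markers to 6.52 to 68.0 CPM.

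Across the 114 strains on 2% iron, the members differed more than among C57BL/6J mice on 1 diet, as did most genes. The SD of log2 CPM between strains was above the pooled SD within diets for 33 of 33 members, by a median ratio of 2.38. The same held for 93.6% of 13410 genes at a median ratio of 1.65. Ifit1 ran from 0.934 CPM in SWR/J through a median of 20.1 to 246 CPM in BXD38/TyJ, a 264-fold range. Rsad2 ran from 2.55 CPM in SWR/J through 27.9 to 506 CPM in BXD38/TyJ, and Ifi44 from 0.425 CPM in SWR/J through 14.8 to 84.1 CPM in AXB8/PgnJ. Irf7 ran from 3.91 CPM in SWR/J through 74.1 to 215 CPM in AXB8/PgnJ. At the narrow end, Ifi35 spanned 8.50 to 26.4 CPM and Ifih1 24.4 to 103 CPM. The 2 mice of 129X1/SvJ differed by a median of 0.20 on the log2 scale, with 1.42 for Oas1g as the widest gap. Their Irf7 levels were 33.7 and 34.4 CPM.

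A score was computed as the mean over the 33 members of each strain's log2 CPM minus the median over strains. The 5 lowest strains were SWR/J at -2.38, FVB/NJ at -2.11, BXH2/TyJ at -1.77, NZB/BlNJ at -1.59 and MRL/MpJ at -1.55. The 5 highest were BXD38/TyJ at 1.71, AXB8/PgnJ at 1.33, C57BL/6J at 1.17, BXD39/TyJ at 0.87 and BXH14/TyJ at 0.77. The founder DBA/2J scored 0.45 and ranked 94th from the bottom, and the founder A/J scored -0.86 and ranked 16th. The other inbred strains had a median score of -0.52, below the medians of the BXD strains at 0.16 and of the AXB and BXA strains at 0.10.

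**Figure D3:**
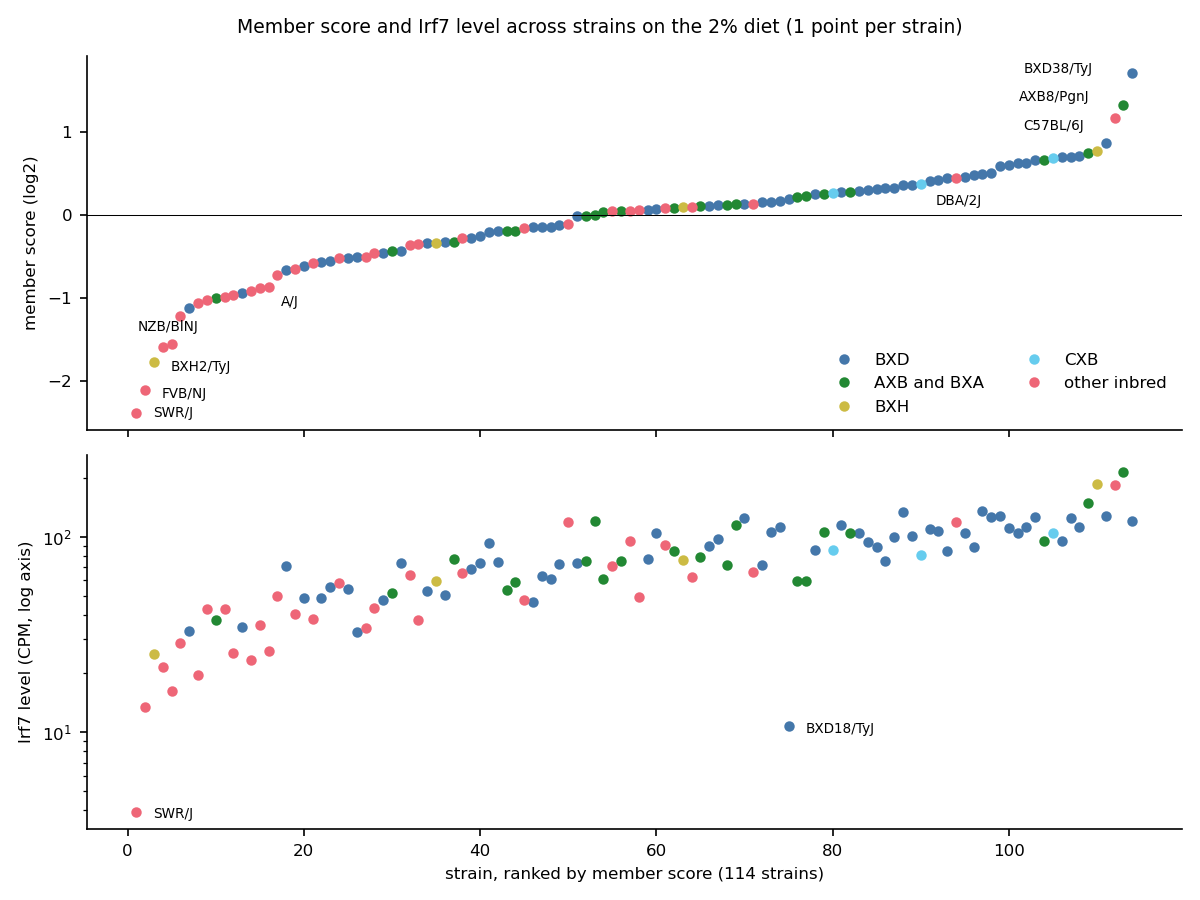
Member score (upper panel, log2) and Irf7 level (lower panel, CPM, log axis) of 114 strains on the 2% diet, ranked by score (horizontal axis) and coloured by family, with 1 point per strain. SWR/J and FVB/NJ lie below -2 and BXD38/TyJ above 1.7, and BXD18/TyJ has an Irf7 level of 10.7 CPM away from the low end of the ranking.

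SWR/J and FVB/NJ were below the median of the strains for all 33 members, as were BXH2/TyJ, MRL/MpJ and A/J. SWR/J alone held the lowest level of 15 members, with Usp18 at 0.849 CPM against a strain median of 19.2. Oas1g had 0 counts in FVB/NJ and in SWR/J, which allows levels of up to 0.23 and 0.255 CPM for 3 counts. Its lowest level elsewhere was 0.236 CPM in BXH2/TyJ, which lies within the limit for SWR/J and just above that for FVB/NJ. At the other end, BXD38/TyJ held the highest level of 19 members. Its Rsad2, at 506 CPM, lay well above the next strain, BXD48a/RwwJ, at 298 CPM, and its Mx2 was 93.1 CPM against 30.4 CPM in the next strain. Ly6e did not share this pattern, at 231 CPM in BXD38/TyJ, which ranked 13th from the bottom. Nor did Bst2 at 63.4 CPM and Ifi27 at 55.3 CPM, which ranked 46th and 67th. Kupffer cell markers summed to 484 CPM in BXD38/TyJ, 292 CPM in SWR/J and 538 CPM in FVB/NJ, against a panel median of 593 CPM.

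The members rose and fell together across strains. Irf7 was positively related to each of the other 32, and all 32 relations were called (permutation tests with 100000 resamples, two-sided, adjusted over the 32 relations computed). Pearson's r had a median of 0.69. The closest was Oas1g (r = 0.84, rho = 0.83, adjusted permutation p = 1.03e-05, resting on the smallest p that the resamples allow) and the weakest was Mx2 (r = 0.26, rho = 0.29, adjusted permutation p = 0.00525). Without SWR/J and BXD18/TyJ, the strains farthest from the median of Irf7, the 2 values were 0.86 and 0.29. Irf9, Stat2 and Isg15 had r of 0.69, 0.42 and 0.71. For comparison, 0.377% of the 15662 other genes had an r of at least 0.5 with Irf7, while 30 of the 32 members did. Over all 528 pairs of members the median r was 0.66 and every r was above 0. These correlations share 1 library per strain, so the depth and composition of that library enter both genes of a pair.

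**Figure D4:**
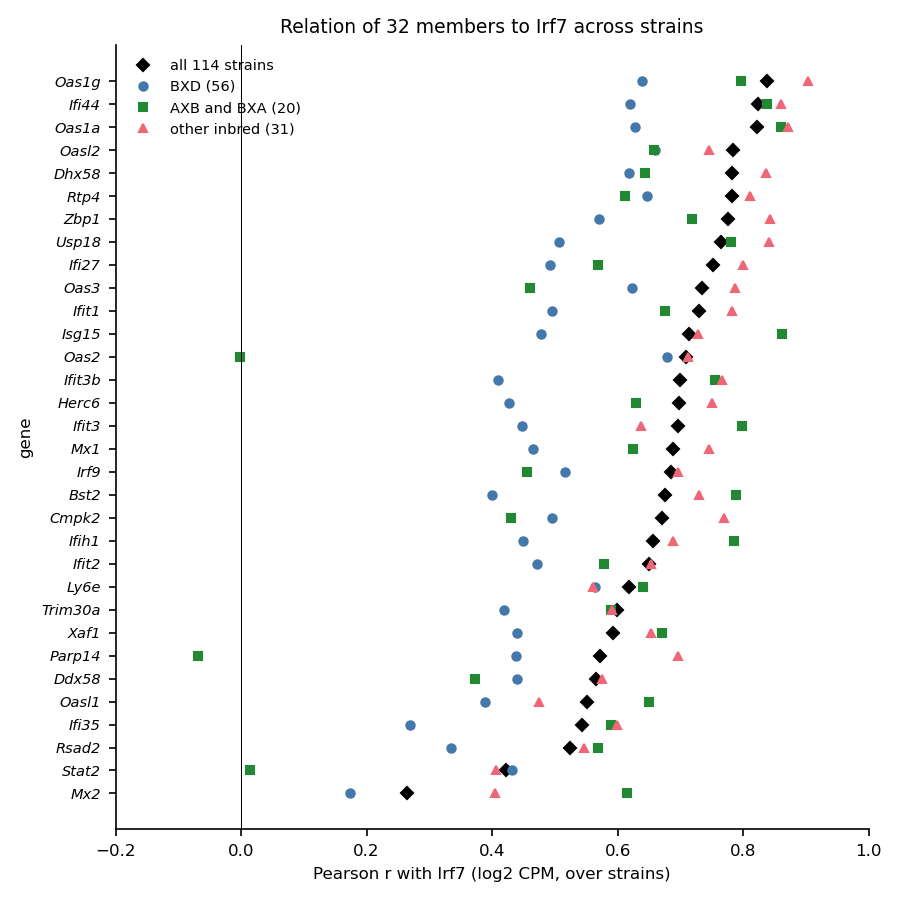
Pearson's r between Irf7 and each of 32 members over strains (horizontal axis, log2 CPM; genes on the vertical axis), for all 114 strains and within 3 groups of strains. Oas2, Parp14 and Stat2 lie near 0 within the 20 AXB and BXA strains, and other members lie at 0.17 or above in every group.

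Within families the relations were kept in part. In the 56 BXD strains, 31 of 32 were called, with a median r of 0.47, and the exception was Mx2 (r = 0.17, adjusted permutation p = 0.192). In the 20 AXB and BXA strains, 25 were called with a median r of 0.63. The 7 that did not pass were Oas2, Parp14, Stat2, Ddx58, Cmpk2, Oas3 and Irf9, and the first 3 of these had r of 0.00, -0.07 and 0.01. In the 31 other inbred strains, all 32 were called with a median r of 0.73. Whether r differed between these groups was not tested. No share of other genes called by the same permutation tests is given here, over all strains or within families. The counts called therefore have no background.

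Some members stood apart from the rest. Rsad2 and Oasl1, on chromosomes 12 and 5, were closest to each other (r = 0.83), while their median r with the other members was 0.40 and 0.44. Only Mx2 had a lower median, at 0.39. In NZB/BlNJ, Rsad2 at 79.1 CPM, Oasl1 at 63.7 CPM and Stat2 at 103 CPM ranked 102nd, 101st and 113th from the bottom, although Oasl2 at 0.323 CPM, Irf9 at 7.34 CPM, Ifih1, Rtp4 and Trim30a were the lowest of all strains there. Ifi44 was 0.565 CPM in NZB/BlNJ. These contrasts within a strain were picked after their values were seen, rest on 1 mouse and have no test.

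Irf7 was low in a BXD strain in which many other members were not. In BXD18/TyJ it was 10.7 CPM against a median of 74.1, second only to SWR/J, whereas Ifit1 at 41.5 CPM and Isg15 at 15.5 CPM ranked 99th and 97th from the bottom. Trim30a at 6.54 CPM, Oas2 at 3.49 CPM and Oas3 at 2.79 CPM were below their medians there, at ranks 11, 14 and 28. Relative to the other members, Irf7 was lower there by 3.06 on the log2 scale (a difference of -3.06). Ifit3 was low in RIIIS/J at 0.846 CPM, where Ifit1 was 13.6 CPM and Ifit3b 2.28 CPM. These 2 strains were likewise picked after their values were seen, with 1 mouse each.

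Xaf1 separated the strains into 2 groups once the level of the other members was taken into account. The difference between Xaf1 and the mean of the other 32 members, each centred on its median over strains, lay between -1.03 and 0.17 on the log2 scale in 77 strains and between 0.72 and 1.68 in the other 37, with no strain between. A mixture of 2 normal distributions gave these groups an Ashman's D, the distance of the means in units of spread, of 7.61. No other member's difference split the strains at a D above 3 with at least 3 strains on either side. The BXD strains fell on both sides, 27 low and 29 high, and among their founders C57BL/6J was low at -0.39 and DBA/2J was high at 1.22. All 20 AXB and BXA strains, all 4 BXH strains and all 3 CXB strains were low, as was A/J at -0.30. Of the 31 other inbred strains, 8 were high: 129X1/SvJ, BTBR T<+> tf/J, C57BLKS/J, CE/J, DBA/2J, LP/J, NOR/LtJ and SEA/GnJ. Median Xaf1 levels were 9.62 CPM in the low and 28.5 CPM in the high BXD strains. Within the BXD strains the levels themselves overlapped, at 4.02 to 27.5 CPM and 15.7 to 43.6 CPM. This split was found in the data and has no test.

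**Figure D5:**
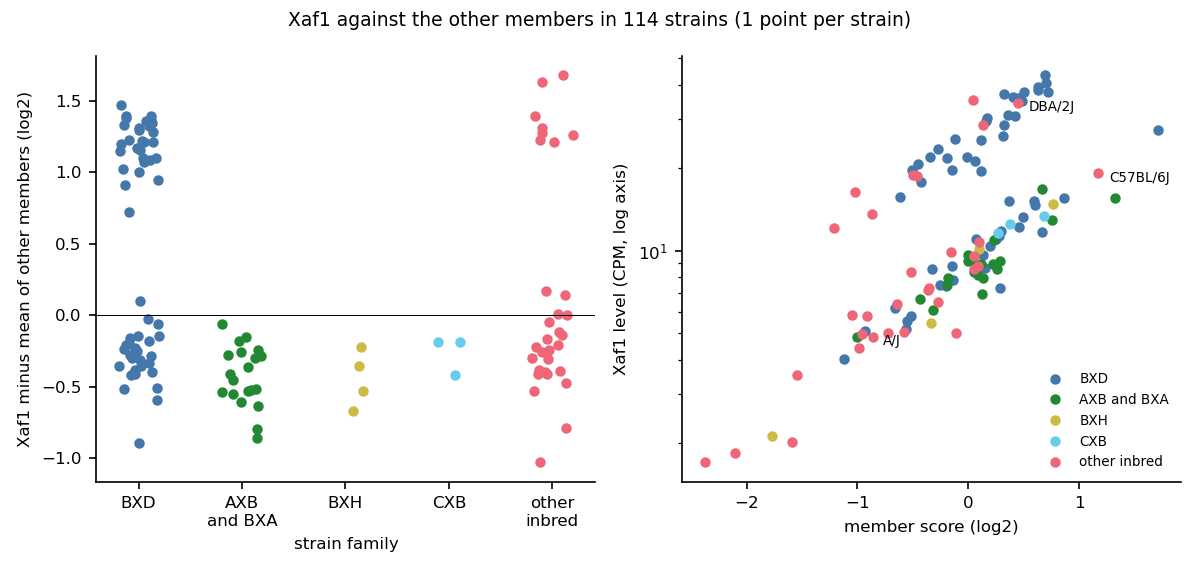
Left, log2 level of Xaf1 minus the mean of the other 32 members in 114 strains, by family. Right, Xaf1 level (CPM, log axis) against the member score. Each point is 1 strain. The 2 bands are separated by an empty interval from 0.17 to 0.72, and the upper band holds BXD and other inbred strains only.

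The BXD strains were compared with the AXB and BXA strains over strains as replicates. By their names, BXD48/RwwJ and BXD48a/RwwJ are related substrains, as are AXB19/PgnJ, AXB19a/PgnJ and AXB19b/PgnJ. Each was counted as a separate strain here and in the relations to Irf7. Of 33 members, 1 was called higher and 1 lower, where 11.6% of 13794 genes were called in either direction. Xaf1 was higher in the BXD strains, at a median of 18.6 CPM against 8.75 CPM (log2 fold change 1.11 ± 0.22 SE, adjusted p = 1.76e-04). Bst2 was lower, at a median of 70.9 CPM against 94.8 CPM (log2 fold change -0.32 ± 0.11 SE, adjusted p = 0.0368). Irf7 had medians of 89.3 and 76.1 CPM and a log2 fold change of -0.01 ± 0.15 (SE, adjusted p = 0.972). Limma on log2(TPM + 1) called neither gene, and with the other inbred strains in the fit only Xaf1 was called.

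Genes outside the list tracked the score closely. Among 12871 genes whose mean over strains reached 1 CPM, the 10 non-members with the highest r included Ddx60 (0.89), Gbp3, Parp12, Lgals3bp, Rnf213, Znfx1, Apol9a, Gbp6 and Irgm2 (0.80). Of the 30 further type I targets, 24 had an r of at least 0.5, as did 11 of 19 interferon gamma targets, 6 of 18 sensing genes and 2 of 12 receptor and signalling genes. Over all 12871 genes, 1.52% reached 0.5 and the median r was 0.00. No Kupffer cell marker of 11 reached 0.5, and the highest r among them was 0.42.

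The summed markers of 6 cell types were also related to Irf7, with p-values adjusted over the 6. The Kupffer cell sum had an r of 0.22 (adjusted permutation p = 0.037) and a rho of 0.15 (adjusted permutation p = 0.168), and r was 0.13 without SWR/J and BXD18/TyJ. Within the BXD, AXB and BXA, and other inbred strains, r was 0.25, -0.27 and 0.22. The lymphocyte sum had an r of 0.26 (adjusted permutation p = 0.0364; rho = 0.20, adjusted permutation p = 0.0807) and the hepatocyte sum an r of -0.22 (adjusted permutation p = 0.037; rho = -0.30, adjusted permutation p = 0.00936). The neutrophil, endothelial and plasmacytoid dendritic cell sums had r of -0.15, -0.04 and 0.00 and did not pass. For the neutrophil sum rho was -0.19 (adjusted permutation p = 0.0807), and r was -0.25 without SWR/J and BXD18/TyJ. In the panel, Ifnb1 had at most 1 count in a library and was above 0 in 2 of 115 libraries, and Ifng had at most 2 counts and was above 0 in 30.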

How the data were processed

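Liver RNA-seq of 130 mice labelled male was used. The authors deposited expected counts per gene and mouse, without normalization, and TPM for the same genes, in separate tables for the diet study and the panel. The submitters' processing notes name kallisto 0.46 and mm10, with no role given. The name of the deposited panel table points to Ensembl 97. Whether counting used strand is not given in the sources used here. Symbols and positions came from GENCODE M21 (GRCm38), which matched 34845 of 35274 and 35612 of 35711 identifiers.

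Expected counts were rounded to whole numbers. Genes were filtered with filterByExpr, scaled with TMM and tested with glmQLFTest of edgeR 4.0.16 in R 4.3.3, two-sided, over all genes. The 5 diets were fitted together. The BXD, AXB and BXA strains were fitted alone. Log2 CPM used a prior count of 2. The 2 mice of 129X1/SvJ were averaged. All 33 members passed the filters in both studies. Alternatives used DESeq2 1.42.0, limma 3.58.1 on log2(TPM + 1) and log2(TPM + 0.1), other filters and left-out mice. Scripts were tested on simulated data. Named genes were all members, up to 4 called genes per other list and direction, and the 10 genes closest to the score. A result that falls under this rule but is withheld is not reported here. Members, lists and rules were chosen with earlier results of these data known. Genes and strains outside that rule are named as picked afterwards. Reads carry no molecular identifiers, so limits on 0 counts cover counting error only.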

Additional observations from a re-analysis of the deposited data

Results flagged for a closer look

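In the 4 BXH strains, 34 values were checked for a strain far from the others, namely the score and each member. Of these, 2 exceeded Dixon's 95% critical value, where chance alone would mark about 1 in 20. That is close to the chance rate, and the 34 values share the same 4 mice, so they are not independent. For Irf9 the gap between BXH2/TyJ and its nearest neighbour was 0.848 of the group's range on the log2 scale, with 9.02 CPM in BXH2/TyJ against 33.02 to 41.7 CPM in the other three. For Oas2 it was 0.835 of the range, with 1.94 CPM against 6.71 to 8.54 CPM.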

How the results depend on the processing

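The members called for 2% iron against 50 ppm, 500 ppm and chow numbered 27 to 31, 29 to 31 and 31 to 33 under the alternative scalings, filters, tools and fits, and 25 to 27, 27 to 32 and 28 to 33 with 1 mouse left out. The comparisons of 500 ppm or chow with 50 ppm gave 0 throughout. For 2% with cellulose against 2%, where edgeR called 0, DESeq2 called 1 and fits with 1 mouse left out called 0 to 2, the 2 arising without the third cellulose mouse. For the BXD against the AXB and BXA strains, limma on log2(TPM + 1) called 0 and the fit with the other inbred strains called 1, against 2; the cause was not tested. Among 427 refits of single members for 2% against 50 ppm, 400 kept their side of the threshold, 21 lost a call, 6 gained one and none reversed; the calls lost were those of Mx1, Mx2, Bst2, Ifi35, Zbp1 and Trim30a. Between 25 and 32 members remained related to Irf7. Of the 10 lowest and 10 highest strains by score, 9 to 10 and 7 to 10 were shared with the alternatives. No paired analysis was possible because the labels carry no replicate numbers. With 3 mice per diet and 1 per strain, small differences could not be resolved, and members near 1 CPM rest on few counts.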
